A study of Danio rerio with 2 samples.

Results

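Among the cell barcodes of 2 zebrafish trunk libraries was a set of red-cell barcodes rich in transcripts of inducible Hsp70 chaperones, called heat-shock-high here. A barcode was taken as erythroid where at least 500 genes were detected and at least 20% of its unique molecular identifiers (UMIs, 1 per captured transcript) came from globin genes. Members were then chosen by the measured level of 4 Hsp70 genes. A barcode was heat-shock-high where hsp70l, hsp70.1, hsp70.2 and hsp70.3 together gave at least 5 per 10000 UMIs, and heat-shock-low where they gave fewer than 1. These rules left 3080 heat-shock-high, 324 heat-shock-low and 628 intermediate barcodes of 4032 erythroid barcodes, out of 17878 barcodes in all.

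One library came from fish labelled miR-223(ya303) mutant that carried Tg(miR-223:KalTA4)ya363, and one from wildtype fish that carried Tg(miR-223:KalTA4)ya362. Embryos of both lines also carried Tg(5xUAS:eGFP)nkuasgfp1a and Tg(kdrl:hras-mCherry)s896 and were raised at 28.5 °C. Their trunks were taken at 27 hours post fertilization, treated with liberase for 45 minutes and sorted for the mCherry reporter, which the kdrl promoter drives and which marks endothelium, before droplet-based capture of transcript 3′ ends. The sources used here give neither a heat treatment nor the number of embryos behind a library. With 1 library per genotype there was no replicate, no p-value is given, and genotype and library cannot be told apart. All intervals are 95% intervals of counting error only. They treat UMIs as independent and leave out the spread between barcodes.

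Heat shock proteins are chaperones that bind unfolded or newly made proteins. The inducible Hsp70 genes, inducible Hsp90 and their Hsp40 (DnaJ) partners are switched on together by heat shock factor 1 when unfolded proteins build up in the cytosol, while constitutive relatives such as hspa8 are made at all times. Primitive red cells of the zebrafish embryo make embryonic globins and heme in large amounts, so their RNA is dominated by globin transcripts.

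The mutant library held 125149083 UMIs over 9176 barcodes and the wildtype library 92241952 UMIs over 8702. The heat-shock-high group had 2088 mutant and 992 wildtype barcodes, which was 76.7% (75% to 78.2%, Clopper-Pearson) of erythroid barcodes in the mutant library and 75.8% (73.4% to 78.1%) in the wildtype library. Heat-shock-low barcodes made up 6.64% of erythroid barcodes in the mutant library and 10.9% in the wildtype library. Most erythroid barcodes of both libraries were therefore members. The libraries shared 98 barcode sequences, and 1 of these was heat-shock-high in both.

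Members also held transcripts of red-cell genes that the rule did not use. The heme enzyme gene alas2 stood at 1438 CPM in the mutant and 2199 CPM in the wildtype heat-shock-high group, the anion exchanger slc4a1a at 1493 and 2147 CPM, and the carbonic anhydrase cahz at 1731 and 2326 CPM. Here CPM is summed UMIs of a gene per 1000000 UMIs of the group, leaving out globin genes and the 4 Hsp70 genes, and it is not scaled by transcript length. The endothelial gene kdrl, whose promoter drives the sorted reporter, stood at 18.8 and 19.0 CPM in the same groups, although trunk endothelium is the tissue named in the labels. The 10 endothelial markers summed to 188 CPM in mutant heat-shock-high barcodes and 212 CPM in mutant heat-shock-low ones, and to 186 and 275 CPM in the wildtype library. All of the 6 mutant and 7 wildtype markers past the filter described further on were lower in the heat-shock-high group. So were 59.6% of all features past it in the mutant and 55.8% in the wildtype library. The 10 myeloid markers summed to 429 CPM in mutant heat-shock-high and 510 CPM in mutant heat-shock-low barcodes, and to 226 and 227 CPM in the wildtype library. None of the 10 endothelial markers was at 0 in any group. The part of these other-cell transcripts in the comparisons was not tested, but each named gene was also computed without barcodes rich in them.

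The 4 genes that chose the members are given as a description. The summed rate had a median of 18.0 per 10000 UMIs in mutant heat-shock-high and 0.404 in mutant heat-shock-low barcodes, and of 29.3 and 0.475 in the wildtype library. The highest rates were 188 per 10000 in the mutant and 157 per 10000 in the wildtype library. Just inside the upper threshold, at 5 to 5.5 per 10000, lay 43 mutant and 10 wildtype barcodes, and just outside it, at 4.5 to 5, lay 59 and 18. The median member held 49 UMIs of the 4 genes in the mutant and 84.5 in the wildtype library, but a shallow barcode could pass with 1 UMI.

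**Figure D1:**
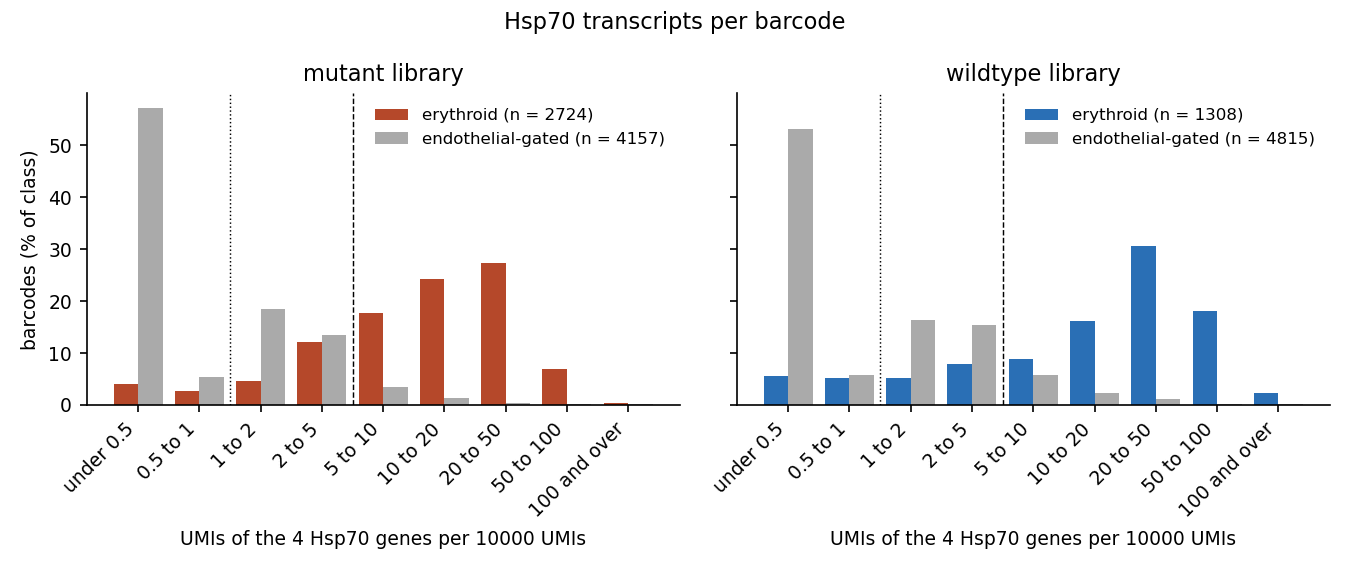
Share of barcodes (%) by UMIs of the 4 Hsp70 genes per 10000 UMIs, for erythroid (coloured) and endothelial-gated (grey) barcodes of the mutant (left) and wildtype (right) library; the dotted line is the lower and the dashed line the upper threshold. The bins differ in width. The fullest erythroid bin is 20 to 50 per 10000 in both libraries, with 27.4% of mutant and 30.7% of wildtype erythroid barcodes. Of endothelial-gated barcodes 57.1% and 53% lie under 0.5.

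The plot of rates shows erythroid barcodes in every bin, and the thresholds did not fall in a gap. The bins differ in width, so their shares do not give the shape of the distribution. The number of peaks was not tested. A larger share of erythroid barcodes lay at high rates in the wildtype library. At 50 to 100 per 10000 lay 6.98% of mutant and 18.0% of wildtype erythroid barcodes.

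By gene, hsp70l stood at 1223 CPM in mutant heat-shock-high and 15.5 CPM in mutant heat-shock-low barcodes, and at 2983 and 23.3 CPM in the wildtype library. The gene hsp70.3 stood at 1232 and 35.8 CPM in the mutant and at 1807 and 46.1 CPM in the wildtype library. For hsp70.2 the levels were 847 and 11.6 CPM in the mutant and 1219 and 9.40 CPM in the wildtype library, and for hsp70.1 they were 572 and 7.58 CPM and 553 and 6.71 CPM. The UMIs of hsp70.1, hsp70.2 and hsp70.3, which neighbour each other in the RefSeq annotation of assembly GRCz12tu with hsp70l on another chromosome, can be hard to assign between such similar copies, so the split between them is uncertain. UMIs of all 4 genes were found in 1898 of 2088 mutant members (90.9%) and 783 of 992 wildtype members (78.9%), and in no heat-shock-low barcode. Only 1 of the genes had UMIs in 9 mutant and 5 wildtype members. These counts follow in part from the thresholds, since a heat-shock-low barcode held at most 4 UMIs of the genes.

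The same genes were scarcer outside the red cells. In all barcodes of at least 500 genes that were not erythroid, they gave 2.2 UMIs per 10000 in the mutant and 2.3 in the wildtype library. A rate of 5 or more was reached by 9.32% of these 5794 mutant and 11.9% of these 6300 wildtype barcodes. Endothelial-gated barcodes, which are part of them, had lower values than the whole. Over all erythroid barcodes the 4 genes gave 19.2 UMIs per 10000 in the mutant and 28.5 in the wildtype library, against 1.40 and 1.85 in endothelial-gated barcodes (under 5% globin UMIs, at least 10 endothelial and under 5 myeloid marker UMIs per 10000). Among the endothelial-gated barcodes a rate of 5 or more was reached by 5.61% (4.93% to 6.35%) of 4157 mutant and 9.33% (8.52% to 10.2%) of 4815 wildtype ones. Erythroid barcodes were deeper, with medians of 28093 and 31110 UMIs against 7301 and 7269. With every barcode thinned to 5000 UMIs, 75% of mutant and 75.2% of wildtype erythroid barcodes were past the threshold, against 4.69% and 8.11% of endothelial-gated ones. This left out 47 mutant and 76 wildtype erythroid barcodes and 1002 and 1302 endothelial-gated ones. Globin UMIs were also present in endothelial-gated barcodes, at medians of 0.873% and 0.793% of UMIs. There were 5.06 and 6.51 UMIs of the 4 genes per 1000 globin UMIs in erythroid barcodes and 15.8 and 21.6 in endothelial-gated ones.

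**Figure D2:**
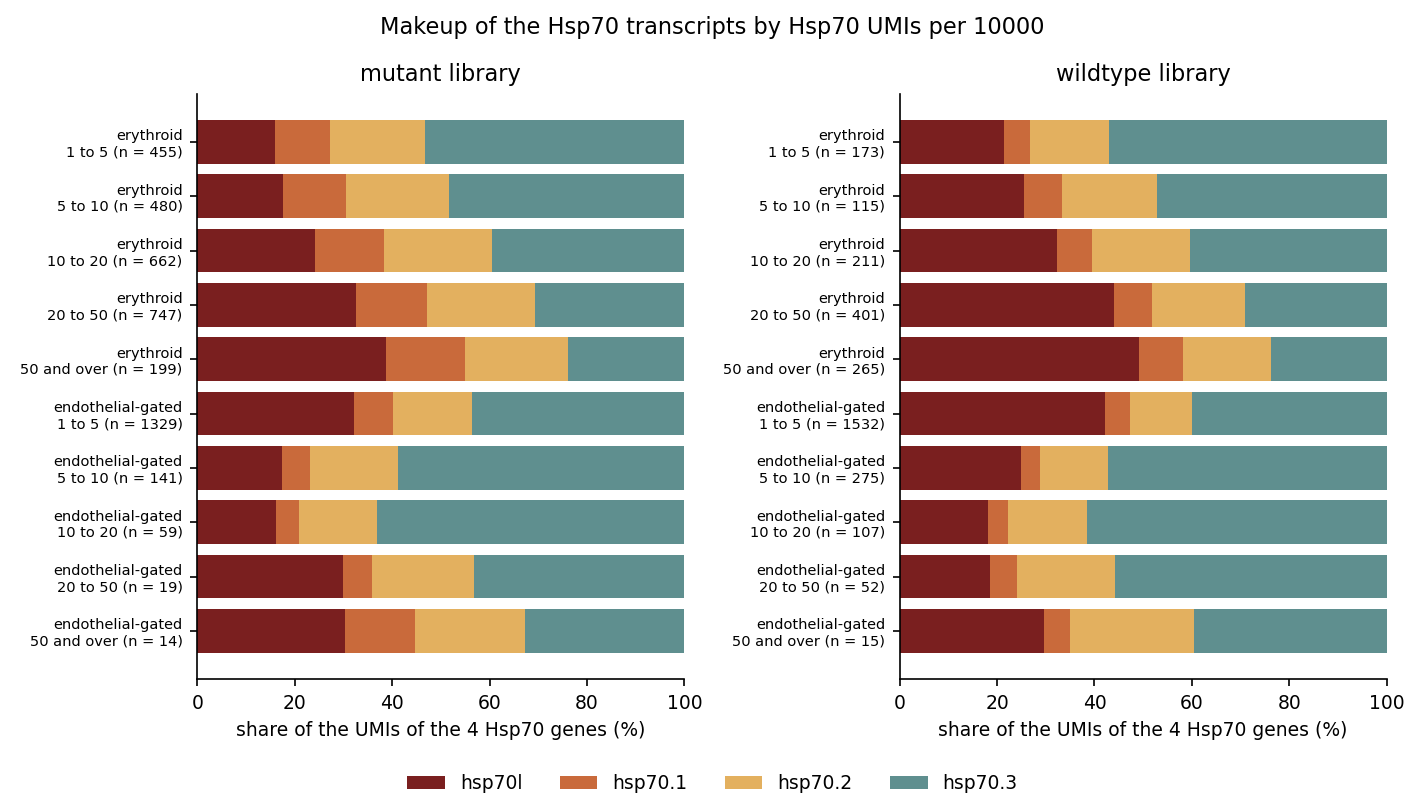
Share (%) that each of the 4 Hsp70 genes holds of their summed UMIs, for erythroid barcodes in 5 bins of the summed rate per 10000 UMIs and for endothelial-gated barcodes in the same 5 bins, in the mutant (left) and wildtype (right) library. Down the erythroid bins the share of hsp70l goes through 15.9%, 17.6%, 24.2%, 32.6% and 38.8% in the mutant library and 21.4%, 25.5%, 32.3%, 44.0% and 49.2% in the wildtype library.

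The shares of the 4 transcripts, given as a description of the genes that chose and binned the barcodes, differed along the summed rate, as the plot of makeup shows. In red cells of 1 to 5 per 10000 hsp70.3 held 53.3% of the UMIs in the mutant and 57.0% in the wildtype library. Over the bins of 5 to 10, 10 to 20, 20 to 50 and at least 50 per 10000 its share was 48.4%, 39.5%, 30.6% and 24.0% in the mutant and 47.1%, 40.4%, 29.2% and 23.8% in the wildtype library. In the top bin hsp70l held the largest share, 38.8% in the mutant and 49.2% in the wildtype library. Binning on the sum can itself favour the gene that varies most at the top, and the part of this in the shares was not tested.

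Endothelial-gated barcodes did not follow the same order along the bins. At 1 to 5 per 10000 hsp70l held 15.9% in red cells of the mutant and 21.4% in those of the wildtype library, against 32.1% and 42.1% in endothelial-gated barcodes. At 5 to 10 it held 17.6% and 25.5% in red cells, against 17.4% and 24.9% in endothelial-gated barcodes. At 10 to 20 it held 24.2% and 32.3% in red cells, against 16.1% and 18.1% in endothelial-gated barcodes. At 20 to 50 it held 32.6% and 44.0% in red cells, against 29.9% and 18.6% in endothelial-gated barcodes, and at 50 and over 38.8% and 49.2%, against 30.4% and 29.6%. The endothelial-gated bins from 20 upward held few barcodes, 19 and 14 in the mutant and 52 and 15 in the wildtype library. At 1 to 5 per 10000 endothelial-gated barcodes held few UMIs each, 2191 over 1329 barcodes in the mutant and 2703 over 1532 in the wildtype library. Red cells of that bin held 3606 UMIs over 455 and 1319 over 173 barcodes. The part of this in the shares was not tested.

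Heat-shock-high and heat-shock-low red cells were close in most general measures. Median UMIs were 28487.5 in mutant heat-shock-high and 25523 in mutant heat-shock-low barcodes, and 31276.5 and 31284 in the wildtype library. Globin genes took 37.7% and 36.4% of UMIs (medians) in the mutant and 43.3% and 46.3% in the wildtype library. Mitochondrial UMIs took 0.762% and 0.780% in the mutant and 0.846% and 0.788% in the wildtype library. Ribosomal protein transcripts took 40.9% and 40.7% of non-globin UMIs in the mutant library and 41.0% in both groups of the wildtype library. The heat-shock-high state thus came with little difference in mitochondrial share or ribosomal protein share. In depth the groups were close in the wildtype library, with lower quartiles of 25590.5 and 24936 UMIs. Mutant members were deeper than mutant heat-shock-low barcodes, with lower quartiles of 24193 and 19503 UMIs.

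With the 4 genes left out, few other transcripts differed. Those higher in both libraries were led by other chaperones and co-chaperones and by pdcd4b. Immediate early factors, a polyubiquitin gene and oser1 followed at smaller ratios. A feature was tested where the mean CPM of the groups was at least 20, and called where the ratio of heat-shock-high over heat-shock-low, with 1 CPM added to each, was at least 2-fold. In the mutant library 9 of 3249 features were called higher (0.277%) and 9 lower (0.277%). In the wildtype library 16 of 3217 were called higher (0.497%) and 6 lower (0.187%). Of 2982 features tested in both libraries, 8 were at least 2-fold higher in both and 0 at least 2-fold lower in both, while 2899 (97.2%) stayed within 1.5-fold in both. The median log2 ratio over all features tested was -0.04 in the mutant and -0.02 in the wildtype library.

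**Figure D3:**
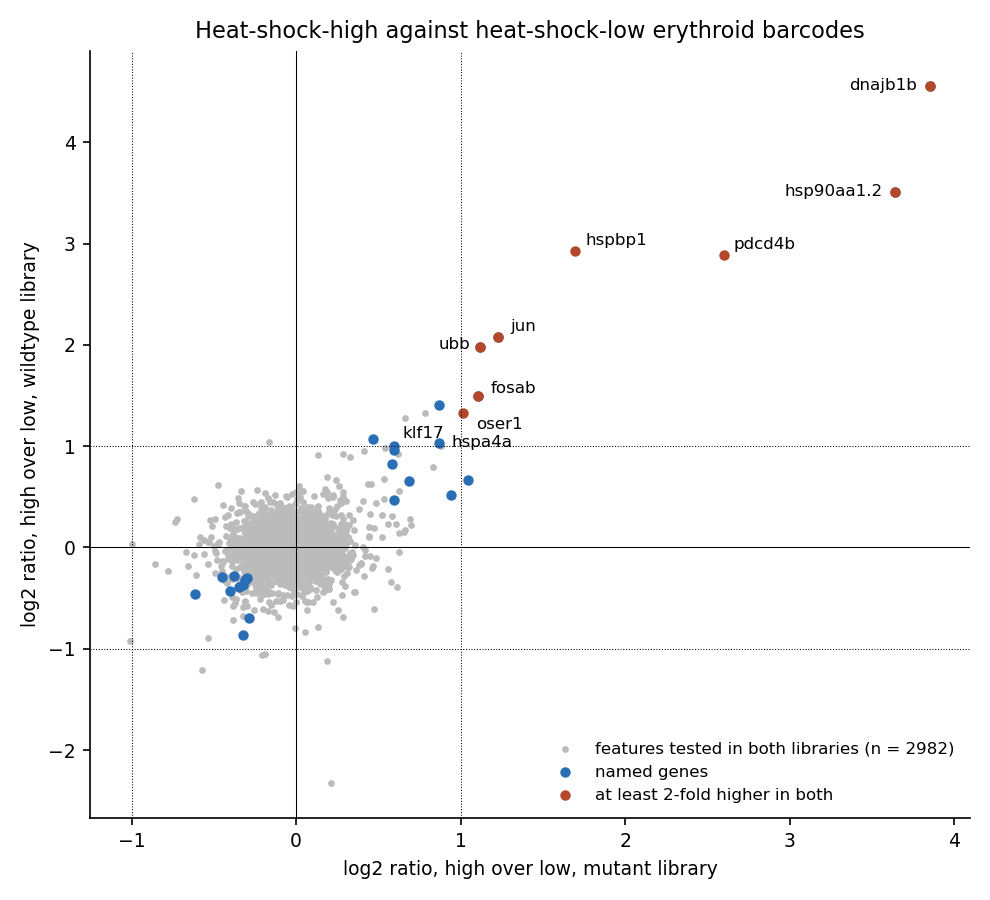
Log2 ratio of CPM, heat-shock-high over heat-shock-low erythroid barcodes, in the mutant (x axis) against the wildtype library (y axis), for 2982 features tested in both; dotted lines mark 2-fold, blue points the genes named by rule and red points the 8 features at least 2-fold higher in both. The points dnajb1b (3.85 and 4.56) and hsp90aa1.2 (3.64 and 3.51) lie far to the upper right of the cloud around 0.

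Among the 8 features the highest ratios were those of 2 partners of Hsp70, dnajb1b and hsp90aa1.2. The Hsp40 co-chaperone dnajb1b, which stimulates the ATPase of Hsp70, stood at 238 CPM in mutant heat-shock-high and 15.5 CPM in mutant heat-shock-low barcodes, and at 466 and 18.8 CPM in the wildtype library. This was 15.3-fold higher (11.3 to 21.1) in the mutant and 24.8-fold higher (18.3 to 34.4) in the wildtype library. At least 1 UMI of it was present in 77.5% of mutant and 86.4% of wildtype members, and in 20.4% and 23.8% of heat-shock-low barcodes.

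The inducible Hsp90 gene hsp90aa1.2 stood at 1556 CPM in mutant heat-shock-high and 124 CPM in mutant heat-shock-low barcodes, and at 2767 and 243 CPM in the wildtype library. It was 12.6-fold higher (11.3 to 14) in the mutant and 11.4-fold higher (10.5 to 12.4) in the wildtype library. Over single barcodes its median was 1193 CPM in mutant members and 66.0 CPM in mutant heat-shock-low barcodes, and 2211 and 143 CPM in the wildtype library. The upper quartile of heat-shock-low barcodes was 185 CPM and the lower quartile of members 657 CPM in the mutant library. In the wildtype library these were 344 and 1231 CPM. Single heat-shock-low barcodes overlapped the members, reaching 5708 CPM in the mutant library. That value came from a shallow barcode, since no mutant heat-shock-low barcode held more than 16 UMIs of the gene. The constitutive relative hsp90ab1 had log2 ratios of -0.17 and 0.27.

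Another partner, hspbp1, which binds Hsp70 and releases its nucleotide, stood at 73.7 CPM in mutant heat-shock-high and 22.0 CPM in mutant heat-shock-low barcodes, and at 115 and 14.3 CPM in the wildtype library. The ratios were 3.34-fold (2.59 to 4.38) and 8.05-fold (5.68 to 12). It fell outside the naming rule because its mean was under 50 CPM in one library and is named because it was one of the 8 features. The features pdcd4b and oser1 were likewise named after their values were seen. So was CABZ01080568.1, which passed the filter in the wildtype library alone. It stood at 32.9 CPM in mutant heat-shock-high and 4.33 CPM in mutant heat-shock-low barcodes (7.60-fold, 4.33 to 14.7, 12 UMIs in the heat-shock-low group), and at 97.3 and 4.03 CPM in the wildtype library (24.2-fold, 12.7 to 52.9, from 9 UMIs).

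The gene pdcd4b is a relative of mammalian PDCD4, which restrains translation initiation. It stood at 77.2 CPM in mutant heat-shock-high and 11.9 CPM in mutant heat-shock-low barcodes, and at 162 and 21.0 CPM in the wildtype library. The ratios were 6.48-fold (4.60 to 9.43) and 7.71-fold (5.78 to 10.5), above those of jun, ubb and fosab. The gene oser1 was 2.06-fold (1.65 to 2.60) and 2.56-fold (2.05 to 3.23) higher. In the mutant library its log2 ratio was under 1 in 3 alternatives, at 0.98 with all UMIs as denominator, 0.84 with barcodes thinned to 5000 UMIs and 0.84 with 10 CPM added.

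The immediate early transcription factor genes jun and fosab, whose products pair to form AP-1, were also called in both libraries. The gene jun stood at 143 CPM in mutant heat-shock-high and 60.7 CPM in mutant heat-shock-low barcodes (2.36-fold, 2.02 to 2.77), and at 314 and 73.9 CPM in the wildtype library (4.26-fold, 3.65 to 5.00). The gene fosab stood at 211 and 97.9 CPM in the mutant (2.16-fold, 1.91 to 2.45) and at 317 and 111 CPM in the wildtype library (2.84-fold, 2.5 to 3.24). Both genes were more abundant in endothelial-gated than in erythroid barcodes, jun at 735 and 350 CPM and fosab at 1005 and 438 CPM in mutant endothelial-gated barcodes of at least 5 and of under 1 per 10000. The summed endothelial markers of red cells are given above, and the part of endothelial transcripts in these ratios was not tested. Without barcodes that held at least 10 endothelial or myeloid marker UMIs per 10000, the log2 ratio was 1.29 and 2.18 for jun and 1.17 and 1.46 for fosab in the mutant and wildtype library. In the mutant library the 2-fold call was lost for jun with barcodes weighted equally (0.81) and for both genes with barcodes thinned to 5000 UMIs (0.94 for jun and 0.98 for fosab).

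The polyubiquitin gene ubb (ENSDARG00000093313) stood at 142 CPM in mutant heat-shock-high and 64.7 CPM in mutant heat-shock-low barcodes, and at 339 and 85.5 CPM in the wildtype library. The ratios were 2.19-fold (1.89 to 2.56) and 3.97-fold (3.44 to 4.61). A second feature of the files spelled UBB (ENSDARG00000002369) stood at 260 and 195 CPM in the mutant and at 531 and 274 CPM in the wildtype library, and reads of repeated ubiquitin units can be hard to assign between them.

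Of the 15 genes named by rule as highest, the other 10 had smaller ratios, with log2 values from 0.47 to 1.40 over both libraries. The rule ranked features of at least 50 CPM in both libraries whose direction agreed and whose interval left out 1 in both. Of 1524 features of at least 50 CPM in both libraries, this held for 45 higher and 49 lower ones. The Hsp110 chaperone hspa4a, a nucleotide exchange factor of Hsp70, had log2 ratios of 0.87 in the mutant and 1.03 in the wildtype library. The Krüppel-like factor klf17, which acts in primitive erythropoiesis of the zebrafish, stood at 768 CPM in mutant heat-shock-high and 508 CPM in mutant heat-shock-low barcodes, and at 743 and 371 CPM in the wildtype library. Its ratios were 1.51-fold (1.43 to 1.60) and 2.0-fold (1.87 to 2.15). Per barcode the medians were 686 and 454 CPM in the mutant and 642 and 273 CPM in the wildtype library, so the difference was not carried by a few barcodes.

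The gene slc25a37, mitoferrin, which carries iron into mitochondria for heme, had log2 ratios of 0.47 and 1.07. The importin gene kpna2 had 1.04 and 0.66, the kinase gene pim2 0.94 and 0.51, and the immediate early genes ier2a and junba had 0.59 and 0.96, and 0.58 and 0.82. The spindle gene tacc3 had 0.60 and 0.47, gbp 0.69 and 0.65, and rsrp1 0.87 and 1.40.

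The 10 genes named as lowest had small ratios, from -0.28 to -0.87 on the log2 scale. The GTPase gene arl4aa stood at 490 CPM in mutant heat-shock-high and 613 CPM in mutant heat-shock-low barcodes and at 491 and 634 CPM in the wildtype library. Its medians over single barcodes were 463 and 576 CPM in the mutant and 463 and 566 CPM in the wildtype library. The erythroid factor klf1, an activator of globin and red-cell genes, had log2 ratios of -0.45 and -0.30, opposite in sign to klf17. The actin-binding gene tmsb4x had -0.40 and -0.43, but its median per barcode was 358 CPM in mutant heat-shock-high and 333 CPM in mutant heat-shock-low barcodes, and 327 and 357 CPM in the wildtype library. It stood at 7719 and 8803 CPM in mutant endothelial-gated barcodes past and under the thresholds, and one mutant heat-shock-low red-cell barcode held 356 UMIs of it. Without barcodes rich in endothelial or myeloid markers its log2 ratios were -0.25 and -0.23. The keratin gene krt18a.1, at 3117 and 3767 CPM in the same endothelial-gated groups, had -0.32 and -0.87 in red cells, and -0.25 and -0.45 without those barcodes.

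Several features called lower in 1 library rested on few barcodes. Of the UMIs of the macrophage gene mfap4 in mutant heat-shock-low barcodes, 312 of 338 came from 1 barcode, and of those of si:ch211-5k11.8 in wildtype heat-shock-low barcodes, 319 of 323. The 3 fullest barcodes held 91.4% of s100a10b and 80.9% of cfl1l in the mutant library, and 54.7% of the endothelial claudin gene cldn5b in the wildtype library. With barcodes rich in endothelial or myeloid markers removed, 4 mutant and 1 wildtype features were called lower, against 9 and 6. The markers include mfap4, called lower in the mutant library, and cdh5, called lower in the wildtype library. Part of the drop was thus built into the removal. The marker-rich barcodes were 49 of 2088 mutant heat-shock-high (2.35%) and 5 of 181 mutant heat-shock-low (2.76%). In the wildtype library they were 27 of 992 (2.72%) and 5 of 143 (3.5%).

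Within the chaperone system the difference was uneven. Of the cytosolic chaperone and co-chaperone list without the 4 genes, 20 of 47 features passed the filter in the mutant library and 21 in the wildtype library. Of these, 3 and 6 were called higher and 0 lower, and the medians were 0.10 and 0.27. Of all features tested 0.277% in the mutant and 0.497% in the wildtype library were called higher, and the medians were -0.04 and -0.02. The 3 list members called in the mutant library were dnajb1b, hsp90aa1.2 and hspbp1. The wildtype library added hspa4a, the Hsp90 activator ahsa1b and the Hsp90 immunophilin fkbp4. The log2 ratio of ahsa1b was 0.66 in the mutant and 1.28 in the wildtype library, and that of fkbp4 was 0.78 and 1.33. The adaptor stip1, which links Hsp70 to Hsp90, had log2 ratios of 0.19 and 0.55, and the Hsp40 gene dnaja1 0.53 and 0.68. The constitutive hspa8 was near equal, at 5576 CPM in mutant heat-shock-high and 5418 CPM in mutant heat-shock-low barcodes, and at 5328 and 4922 CPM in the wildtype library.

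Several other chaperone and co-chaperone genes were near the detection limit in red cells. The small heat shock protein gene hspb1 stood at 14.7 CPM in mutant heat-shock-high and 7.58 CPM in mutant heat-shock-low barcodes, and at 17.9 and 6.71 CPM in the wildtype library. The Hsp110 gene hsph1 had 96 UMIs (2.67 CPM) in mutant members and 0 in mutant heat-shock-low barcodes, at least 2.46-fold higher against a limit of 3 UMIs over the group. In the wildtype library it had 121 and 1 UMIs, 16.3-fold (2.87 to 648). The Hsp70 co-chaperone bag3 stood at 0.973 and 0.361 CPM in the mutant and at 1.93 and 0 CPM in the wildtype library, there at least 1.43-fold higher. The small heat shock protein genes cryaba and hspb2, and the Hsp40 gene dnajb5, had 0 UMIs in all 4 groups. The factor gene hsf1 stood at 1.47 and 0.722 CPM in the mutant and at 2.11 and 0.895 CPM in the wildtype library, from 2 UMIs in each heat-shock-low group.

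**Figure D4:**
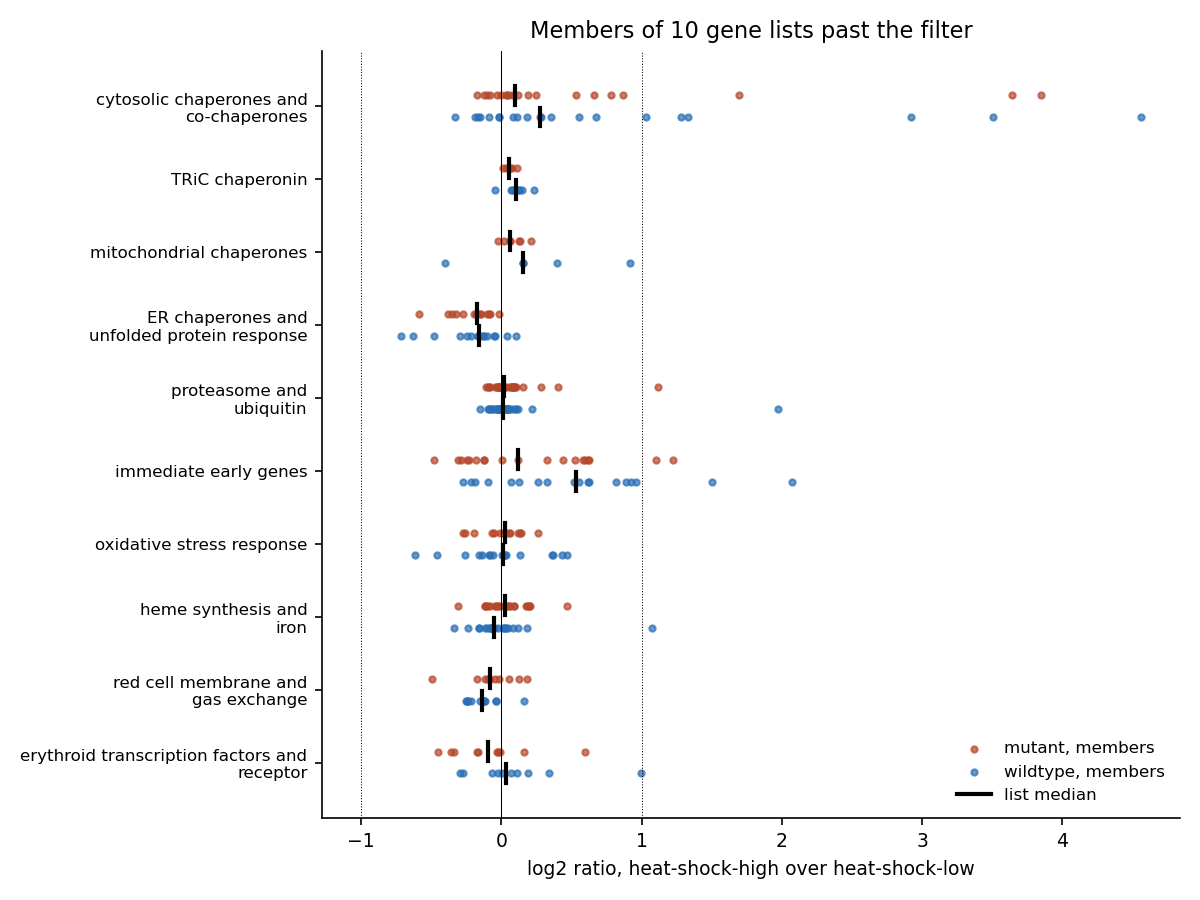
Log2 ratio, heat-shock-high over heat-shock-low erythroid barcodes, of each list member past the filter (points, upper row mutant, lower row wildtype) for 10 gene lists, with the list median as a black bar and 2-fold as dotted lines. The cytosolic chaperones spread to 3.85 and 4.56 around medians of 0.10 and 0.27, while the endoplasmic reticulum list lies below 0 in 14 of 14 and 14 of 16 members.

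The plot of lists sets the other groups beside the cytosolic chaperones. Of the chaperones and stress genes of the endoplasmic reticulum none was called, 14 of 14 mutant and 14 of 16 wildtype features were below 0, and the medians were -0.18 and -0.16. Over all features tested 59.6% in the mutant and 55.8% in the wildtype library were below 0. The summed level of the list in heat-shock-high over heat-shock-low barcodes was 0.890-fold in the mutant and 0.870-fold in the wildtype library, and that of the endothelial markers was 0.885-fold and 0.679-fold. The part of endothelial transcripts in it was not tested. The reticulum Hsp90 gene hsp90b1 stood at 20.8 CPM in mutant heat-shock-high and 27.4 CPM in mutant heat-shock-low barcodes, and at 38.8 and 64.5 CPM in the wildtype library. The reticulum Hsp70 gene hspa5 stood at 114 and 129 CPM in the mutant and at 253 and 276 CPM in the wildtype library.

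The 8 subunit features of the chaperonin TRiC, which folds actin and tubulin, had medians of 0.06 and 0.11 with none called. Of the mitochondrial chaperones none was called either, and the medians were 0.07 and 0.16. Among them the Hsp10 gene hspe1 stood at 129 CPM in mutant heat-shock-high and 118 CPM in mutant heat-shock-low barcodes, and at 167 and 87.7 CPM in the wildtype library. Of 38 proteasome and ubiquitin features in each library only ubb was called, with medians of 0.02 and 0.01. Of all features tested 0.277% and 0.497% were called higher.

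Of the immediate early genes, 19 mutant and 18 wildtype features passed the filter. In each library 2 were called higher (jun and fosab), against 0.277% and 0.497% of all features tested. The medians of the list were 0.12 and 0.54. Its members did not move as one: ier2b had log2 ratios of 0.62 and 0.92, while btg1 had -0.29 and -0.18 and nr4a1 -0.12 and 0.13. The stress factor atf3 had -0.13 and 0.52, and mycb -0.48 and 0.62, with opposite signs in the libraries. Oxidative stress genes had medians of 0.03 and 0.01 with none called.

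Among red-cell genes 1 was called higher, against 0.277% of all features tested in the mutant and 0.497% in the wildtype library. Of 23 heme and iron features in each library the medians were 0.03 and -0.05, and slc25a37 in the wildtype library was the one called. The first enzyme of the pathway, alas2, stood at 1438 CPM in mutant heat-shock-high and 1398 CPM in mutant heat-shock-low barcodes, and at 2199 and 2275 CPM in the wildtype library. Membrane and gas exchange genes had medians of -0.08 and -0.14 with none called. Of these, 8 of 11 mutant and 11 of 12 wildtype features were below 0, against 59.6% and 55.8% of all features tested. Their summed level in heat-shock-high over heat-shock-low barcodes was 0.981-fold (0.966 to 0.997) in the mutant and 0.886-fold (0.873 to 0.9) in the wildtype library. Erythroid factors had medians of -0.10 and 0.03 with none called. Of these, klf17 lay just under the call in the wildtype library, at a log2 ratio of 0.999, against 0.60 in the mutant library. The factor gata1a stood at 280 and 250 CPM in the mutant and at 261 and 241 CPM in the wildtype library. Cell cycle genes had medians of -0.01 and -0.08, and cytosolic ribosomal protein genes 0.01 and 0.01, with none called in any of these.

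The remaining lists held few differences. Genes of p53 signalling and apoptosis had medians of -0.17 and 0.04, translation factors 0.02 and 0.00, and mitochondrially encoded transcripts 0.00 and 0.03, with none called. Heat shock factor 2, hsf2, stood at 10.9 CPM in mutant heat-shock-high and 15.9 CPM in mutant heat-shock-low barcodes, and at 22.8 and 22.4 CPM in the wildtype library. Muscle markers summed to 135 and 124 CPM in the mutant and to 142 and 108 CPM in the wildtype library. Epidermal markers summed to 33.9 and 104 CPM in the mutant and to 22.3 and 24.6 CPM in the wildtype library. Mesenchymal, neural and notochord markers summed to at most 16.6 CPM in any group. The part of these transcripts of other cells in the comparisons was not tested.

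The globins, which chose the erythroid barcodes, are given as a description. The embryonic globin hbbe1.2 had log2 ratios of -0.02 in the mutant and -0.38 in the wildtype library, hbbe3 had 0.10 and -0.13, and hbae5 had 0.38 and 0.36.

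Members also differed among themselves along their Hsp70 rate, in much of the same gene set. Between the 199 mutant and 265 wildtype members of at least 50 per 10000 and the 480 and 115 members of 5 to 10, 21 of 3190 mutant features were at least 2-fold higher (0.658%) and 5 at least 2-fold lower (0.157%). In the wildtype library 23 of 3222 were higher (0.714%) and 8 lower (0.248%). This comparison was added after the first had been seen, and it leaves out the heat-shock-low barcodes. It is no independent check on the first: its top members are part of the heat-shock-high group, and both comparisons split on the Hsp70 rate. An overlap between their features was thus in part built in. Of 2973 features tested in both libraries, 1 was at least 2-fold lower in both, si:ch211-5k11.8 (log2 ratios -1.97 and -1.14). Of the same 2973, 16 were at least 2-fold higher in both, and they included all 8 of the features higher in both above. The others of the 16 were hspb1, ahsa1b, fkbp4, UBB, zfand2a, mknk2b and the unnamed features si:dkey-177p2.6 and CABZ01080568.1, named because they were called. Median UMIs were 29782 in mutant members of at least 50 and 27247 in mutant members of 5 to 10, and 32977 and 29467 in the wildtype library.

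Within the members dnajb1b stood at 711 CPM in mutant members of at least 50 per 10000 and 64.8 CPM in those of 5 to 10, and at 859 and 126 CPM in the wildtype library. The co-chaperone hspbp1 stood at 199 and 32.5 CPM in the mutant and at 235 and 19.4 CPM in the wildtype library, and pdcd4b at 205 and 27.6 CPM and at 285 and 42.9 CPM. The small heat shock protein gene hspb1 stood at 29.2 and 12.1 CPM in the mutant and at 39.0 and 5.15 CPM in the wildtype library. The gene zfand2a, a relative of a mammalian arsenite-induced proteasome partner, stood at 74.3 and 23.8 CPM in the mutant and at 106 and 42.3 CPM in the wildtype library.

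**Figure D5:**
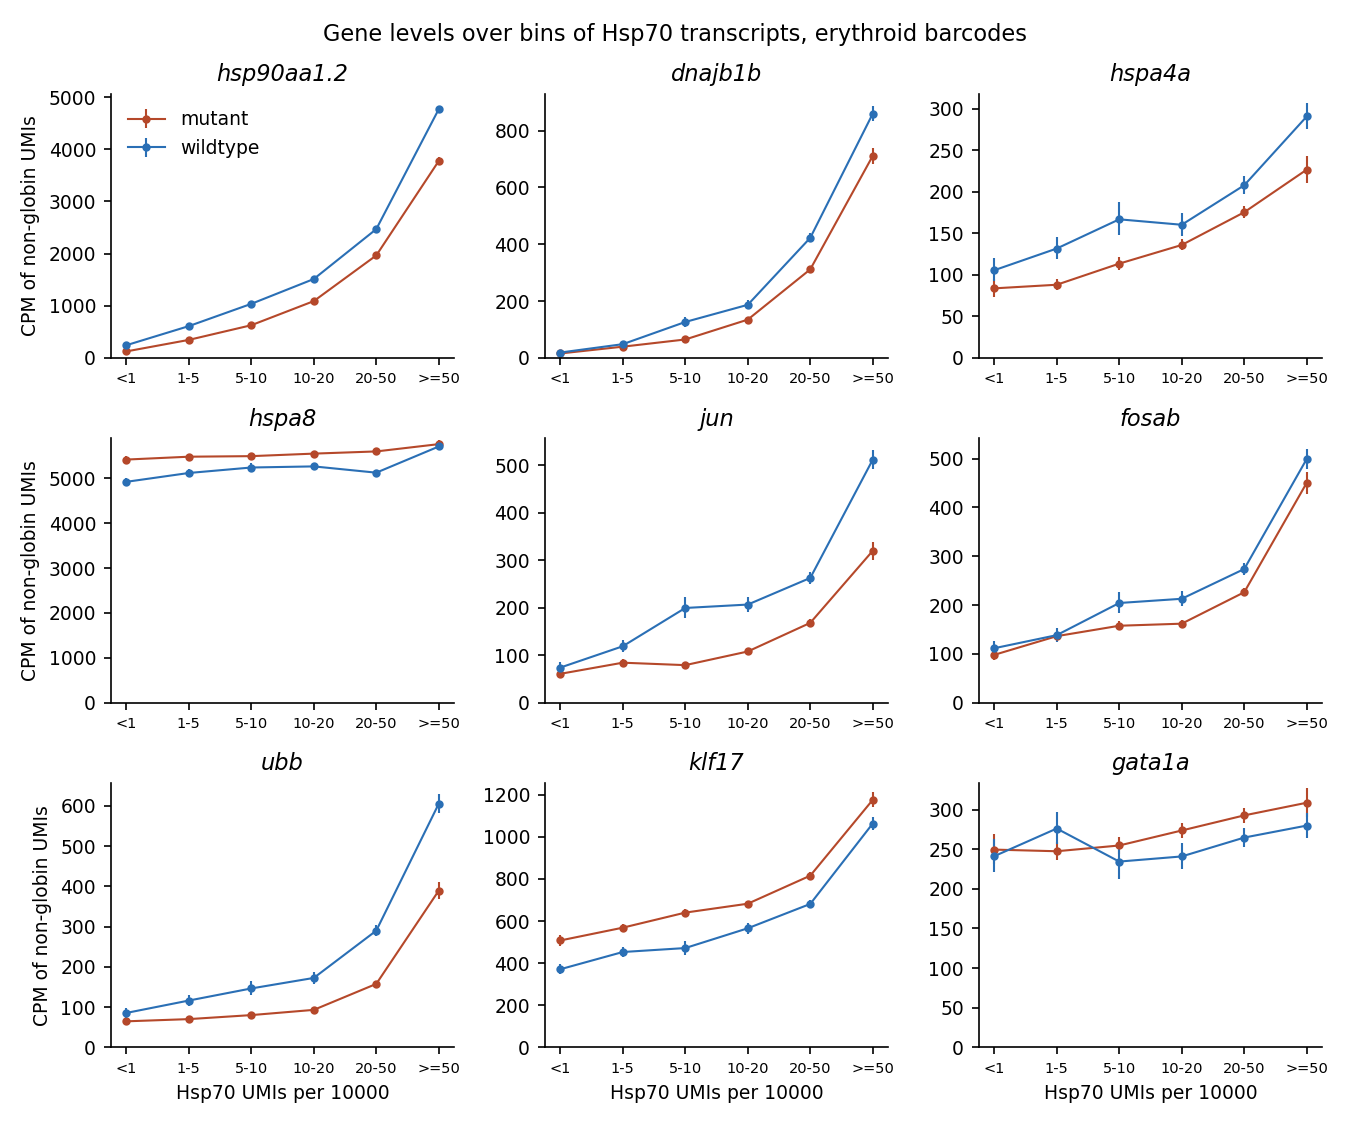
CPM of non-globin UMIs for 9 genes over 6 bins of Hsp70 UMIs per 10000 in erythroid barcodes of the mutant (red) and wildtype (blue) library, with exact Poisson 95% intervals of counting error. From the lowest to the highest bin hsp90aa1.2 goes through 124, 345, 626, 1089, 1965 and 3776 CPM in the mutant library, while hspa8 stays between 5418 and 5762 CPM.

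The plot of bins shows gene levels along the Hsp70 rate. The chaperones dnajb1b and hsp90aa1.2 were higher in each next bin in both libraries: over the 6 bins dnajb1b stood at 15.5, 39.4, 64.8, 135, 312 and 711 CPM in the mutant and at 18.8, 48.3, 126, 187, 423 and 859 CPM in the wildtype library. The gene hspa4a took part of the same course, at 83.8, 88.1, 114, 136, 176 and 227 CPM in the mutant library, while the constitutive hspa8 stayed between 4922 and 5710 CPM in the wildtype library. The genes ubb, jun and fosab were likewise higher at 50 and over than under 1 in both libraries. In the mutant library ubb stood at 64.7 CPM under 1, 80.1 CPM at 5 to 10, 158 CPM at 20 to 50 and 390 CPM at 50 and over. It stood at 85.5, 146, 290 and 606 CPM in the same bins of the wildtype library. In the mutant library jun stood at 60.7, 84.2, 79.0, 108, 168 and 320 CPM over the 6 bins, and fosab at 97.9, 136, 158, 162, 226 and 451 CPM. In the wildtype library jun stood at 73.9 CPM under 1, 200 CPM at 5 to 10 and 512 CPM at 50 and over. There fosab stood at 111, 204 and 499 CPM in the same bins. The factor klf17 also was higher in each next bin, at 508, 569, 640, 683, 816 and 1176 CPM in the mutant and at 371, 453, 472, 566, 681 and 1064 CPM in the wildtype library.

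In contrast, junba differed mainly between the lowest bins, at 62.5, 89.9, 94.1, 97.5, 91.7 and 89.2 CPM in the mutant library, and between members of at least 50 and those of 5 to 10 its log2 ratio was -0.08 and 0.01. The gene ier2a had 0.26 and 0.24 in that comparison. The erythroid factor gata1a had 0.28 and 0.25, and klf1 0.19 and -0.13. Of the 15 genes named as highest, 14 were above 0 in both libraries, the exception being junba. These 15 had been chosen in a group that holds the same top members.

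The endothelial-gated barcodes, split by the same rates, gave some of the same genes. In these barcodes more features were at least 2-fold higher than in red cells in both libraries, in the wildtype library 105 of 3833 against 16 of 3217. At least 2-fold lower were 16 of 3927 mutant and 26 of 3833 wildtype features, against 9 of 3249 and 6 of 3217 in red cells. The part of group size and depth in these counts was not tested. Endothelial-gated barcodes of at least 5 per 10000 numbered 233 in the mutant and 449 in the wildtype library, and those of under 1 numbered 2595 and 2834. The log2 ratios of the first over the second were 2.36 and 2.71 for dnajb1b, 3.31 and 3.47 for hsp90aa1.2 and 1.38 and 1.45 for hspa4a. Some of the named genes had larger ratios in red cells and others in endothelial-gated barcodes. The log2 ratios of ubb were 1.12 and 1.98 in red cells, against 0.82 and 0.66 in endothelial-gated barcodes. In red cells those of dnajb1b were also larger (3.85 and 4.56), while those of hspa4a were smaller (0.87 and 1.03). For kpna2 they were 1.04 and 0.66 in red cells, against 1.74 and 1.22 in endothelial-gated barcodes. The klf17 ratio could not be set beside that of red cells in a firm way, since this gene stood at only 12.6 and 7.56 CPM in the mutant and at 9.54 and 6.16 CPM in the wildtype endothelial-gated groups. The endothelial-gated barcodes past the threshold were shallower (medians 5948 and 5854 UMIs) than those under it (7044 and 7070.5), and the difference between classes was not tested over samples.

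Between the libraries, mutant members stood at 0.41-fold the wildtype level of hsp70l (0.405 to 0.415), 0.694-fold that of hsp70.2, 0.682-fold that of hsp70.3 and 1.03-fold that of hsp70.1. Outside the 4 genes dnajb1b stood at 0.51-fold (0.494 to 0.526), hsp90aa1.2 at 0.562-fold (0.556 to 0.569), jun at 0.456-fold and ubb at 0.418-fold, while klf17 stood at 1.03-fold. In the heat-shock-low group hsp90aa1.2 was also lower in the mutant library, at 0.511-fold (0.445 to 0.586), and klf17 stood at 1.37-fold (1.26 to 1.49). Mutant members had lower Hsp70 rates (median 18.0 against 29.3 per 10000), and the part of this in these ratios was not tested. Among members of at least 50 per 10000 dnajb1b stood at 711 CPM in the mutant and 859 CPM in the wildtype library. In the same members hsp90aa1.2 stood at 3776 and 4769 CPM, jun at 320 and 512 CPM and ubb at 390 and 606 CPM. With a single library of each genotype these are differences between 2 libraries.

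The authors' deposited table of mean UMIs per cell and cluster, whose cells and clusters need not be those used here, gave its cluster 4 as the richest in hbbe3, at 826 (mutant) and 852 (wildtype) UMIs per cell. In that cluster of the authors' deposited table hsp70l stood at 6.11 and 13.2, hsp70.3 at 6.74 and 8.46, hsp90aa1.2 at 7.90 and 11.9 and dnajb1b at 1.17 and 1.92 UMIs per cell. It was not the highest in all of these: cluster 2 of the mutant library in the authors' deposited table had 7.35 UMIs per cell of hsp70l, 7.03 of hsp70.3, 4.16 of hsp90aa1.2 and 2.29 of dnajb1b. Cluster 2 of the wildtype library in the authors' deposited table had 0.476, 0.455, 0.494 and 0.283 UMIs per cell of the same genes. The number of cells behind each mean is not given here. In the wildtype library cluster 4 of the authors' deposited table was the highest in each of these 4 genes.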

How the data were processed

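The deposited matrices hold raw UMI counts per gene and barcode, not normalized, and their headers name software version 3.0.2, per the file headers. Cell Ranger, bcl2fastq, Seurat and build GRCz11 are named in the submitters' processing notes, with no role given. The authors' table of cluster means was used as deposited, holding mean UMIs per cell.

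UMIs were summed over the barcodes of each group in each library (Python 3.11.15, SciPy 1.17.1). Ratios have exact conditional Poisson intervals. Doublets were kept in the reported values and removed with Scrublet (scanpy 1.11.5, expected 6%) as an alternative. Scrublet marked 212 mutant (2.31%) and 45 wildtype barcodes (0.517%), a low share in the wildtype library that may miss doublets. The named genes were the 15 highest and 10 lowest features of at least 50 CPM, ranked by the library nearer to 0, plus list members. The members and lists were chosen with earlier results of these data known. Of the list symbols, 8 were not matched.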

Additional observations from a re-analysis of the deposited data

Results flagged for a closer look

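Gene lists were compared by their summed CPM in heat-shock-high over heat-shock-low red cells. Among lists with several features past the filter, 5 lay on opposite sides of 1 in the libraries, with intervals leaving out 1. Each is a difference in direction between the genotypes' single libraries and was not tested. Oxidative stress genes summed to 1.03-fold in the mutant and 0.934-fold in the wildtype library. Genes of p53 signalling and apoptosis summed to 0.928-fold and 1.15-fold. Heme and iron genes summed to 1.02-fold and 0.975-fold, cell cycle genes to 1.05-fold and 0.964-fold, and erythroid markers to 1.06-fold and 0.959-fold. Globin genes, which are left out of the CPM total, took a larger share of UMIs in heat-shock-high than in heat-shock-low barcodes of the mutant library (medians 37.7% and 36.4%) and a smaller share in the wildtype library (43.3% and 46.3%), and the part of this in these values was not tested.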

How the results depend on the processing

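No paired analysis was possible because each genotype had 1 library. The share of heat-shock-high barcodes was 78.3% with a globin share of at least 40%, 59.0% at 10 per 10000 and 75% thinned before the split in the mutant library, and 67.0% at 10 per 10000 in the wildtype library. Features called higher were 18 (mutant, globin 40%), 17 and 50 (mutant and wildtype, thinned after the split) and 124 and 255 (filter of 10 UMIs), against 9 and 16. Features called lower were 3 and 2 (globin 40%), 4 and 3 (all UMIs as denominator), 15 and 34 (thinned), 103 and 117 (filter of 10 UMIs), 4 and 1 (marker-rich barcodes removed, chosen after seeing the data) and 3 (wildtype, pseudocount of 10 CPM), against 9 and 6. The cause was not tested. The chaperone median was 0.61 (wildtype, thinned), against 0.27. All 8 features higher in both stayed at least 2-fold in both under 9 of 13 settings, 7 under 3 (all UMIs as denominator, mean over barcodes, pseudocount of 10 CPM) and 5 thinned. Some of the 9 could not lose a call. The filter of 10 UMIs left each ratio as it was, and setting the median of all features to 0 raised each ratio. Signs turned for ppt1 (mutant, 0.26 with globin 40%), si:ch211-156j16.1 (mutant, 0.12 with globin 40%, 0.0254 without Scrublet doublets, 0.0362 without marker-rich barcodes) and tagln2 (wildtype, 0.19 and 0.0532 with globin 40% and without marker-rich barcodes). The small heat-shock-low groups, 181 and 143 barcodes, limit the precision of low genes.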
